A study of Homo sapiens with 3 samples.

Results

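The genes described here act in mitosis: the kinases and phosphatases that open it, the checkpoint and kinetochore proteins that time chromosome separation, the spindle and cytokinesis proteins that carry it out, and the chromosome and transcription proteins that go with them. The set holds 36 named genes, chosen by symbol, with kinesins and cyclins kept apart. All 36 were found among the 19775 genes measured, each represented by its probe set (a group of array probes for a transcript) that was brightest on average. RNA came from KYSE140, an established human oesophageal squamous carcinoma line, on 3 Affymetrix arrays: 1 of untreated cells and 2, titled B1 and B2, of cells given cisplatin, a DNA-crosslinking platinum drug, for 12 h. The dose is labelled 10 mM, a unit that is in doubt because micromolar doses are usual in culture. The labels do not state that separate cultures were used for B1 and B2, so p-values measure only the spread between these arrays, which may be technical.

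Progress through mitosis is driven by CDK1 with cyclin B, switched on by CDC25 phosphatases and supported by the Polo and Aurora kinases. Kinetochores that lack microtubules hold the spindle assembly checkpoint on, and once it is satisfied CDC20 activates the anaphase-promoting complex (APC/C), a ubiquitin ligase that destroys securin and cyclin B. Most of these genes are transcribed in late S phase and G2, under the control of FOXM1, B-MYB and the DREAM complex. Cells with damaged DNA can stop before mitosis.

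B2 stood apart from the other arrays. Log2 differences over all genes had an SD of 0.33 for B1 against untreated, 0.60 for B2 against untreated and 0.56 for B2 against B1, so each result is given for B1 and for B2. Markers of the squamous cell of origin were present: 11 of 14 listed markers were measured and all 11 had a log2 value of at least 6 on every array. The keratin gene KRT14 had intensities of 278 (untreated), 276 (B1) and 2372 (B2), and KRT5 had 1217, 1345 and 4251, the widest gaps among these markers. In B2 9 of the 11 were higher than untreated and 2 were lower, EPCAM (-0.12 on the log2 scale) and SOX2 (-0.09), and CDH1 was nearly level (0.06). SOX2 was lower in B1 (-1.23). The 11 measured markers summed to intensities of 31222, 28519 and 44160. Of 8 fibroblast markers 1 reached that level on all arrays, and 0 of 6 measured leukocyte and 0 of 6 endothelial markers did. The summed intensities, in the order untreated, B1 and B2, were 333, 362 and 452 for fibroblast markers, 167, 190 and 180 for leukocyte markers, and 124, 153 and 135 for endothelial markers. The part of these differences between arrays in the results below was not tested.

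Differences between cisplatin and untreated arrays were small for most mitotic genes, and more of them were lower than higher. Of the 36 genes 16 were lower in both cisplatin arrays (44.4%), against 27.4% of all genes, and 4 were higher in both, against 39.2%. All 36 had a mean log2 value of at least 6, and among the 10209 brighter genes that reach this level the shares were 34.2% and 29.8%. A further 12 members were lower in B1 and higher in B2 (17.3% of all genes, 19.3% of brighter genes), and 4 were higher in B1 and lower in B2 (15.7% and 16.7%). The median log2 difference of the members was -0.21 in B1 and -0.06 in B2, against 0.03 and 0.05 over all genes and -0.02 and -0.01 over the brighter genes. With quantile normalization the member medians were -0.14 and -0.01, with the mean of all probe sets -0.15 and -0.10, and with median centring -0.25 and -0.09. In bulk RNA, fewer cells in G2 and mitosis and less RNA per such cell cannot be told apart.

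More members were lower in B1 than in B2. In B1 28 of 36 lay below the untreated array, against 44.8% of all genes and 53.5% of brighter genes, and in B2 20 of 36 did, against 43.3% and 50.9%. The SD of the members' differences was 0.25 in B1 and 0.44 in B2.

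A size rule, the same fold in each direction, asked for an intensity at least 20% lower or at least 25% higher than untreated. Both arrays were at least 20% lower for 6 members: AURKA, BUB1B, TTK, CENPE, CENPF and ANLN (background 6.5% of all genes, 10.1% of brighter genes). None was at least 25% higher in both (5.91% and 4.11%). Taken by itself, B1 had 10 members that were lower by the rule (11.8% and 17.3%) and 1 that was higher (11.0% and 7.11%). B2 had 10 that were lower (18.2% and 27.8%) and 4 that were higher (22.0% and 23.0%). At 2-fold in both arrays, 0 members were lower (0.678% and 1.12%) and 0 higher (0.142% and 0.225%).

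**Figure D1:**
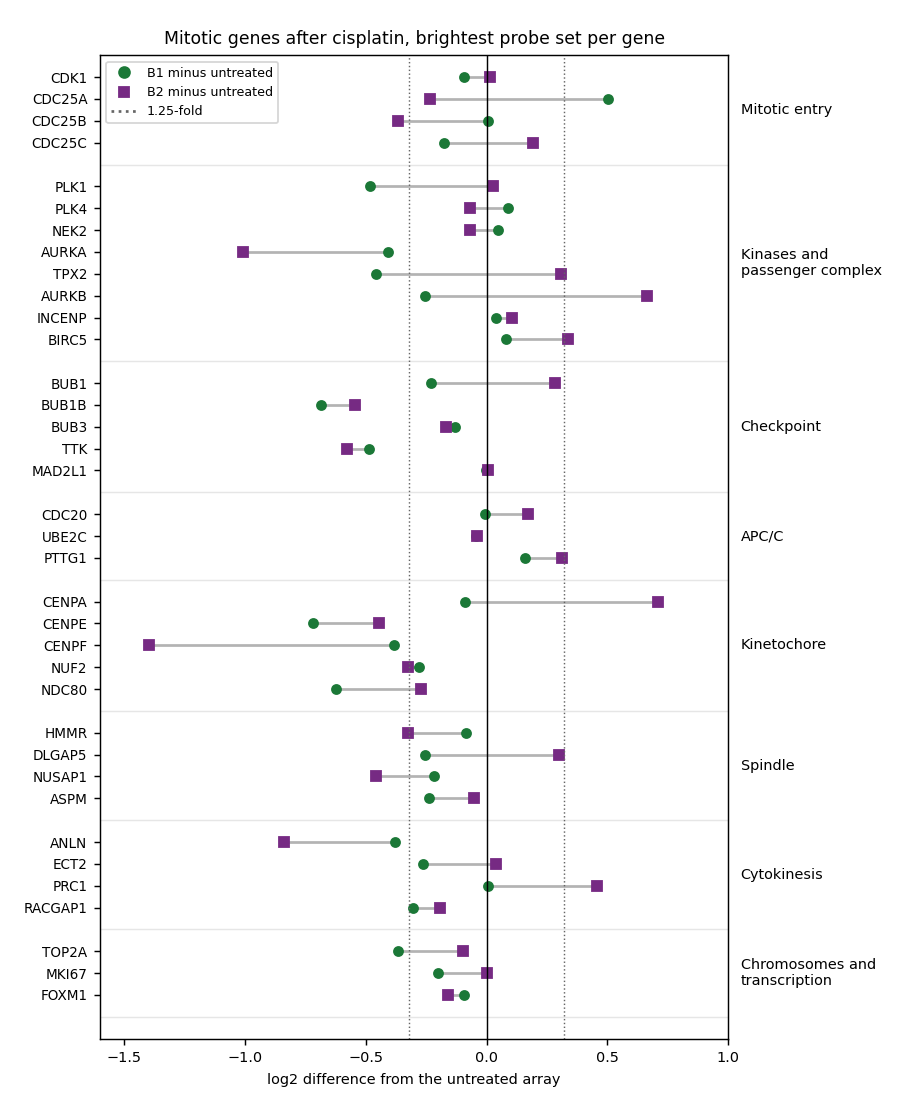
Log2 difference from the untreated array (x axis) for each of the 36 mitotic genes (y axis, grouped by role), with circles for B1, squares for B2 and a grey bar joining them; dotted lines mark 20% lower and 25% higher. Points of 16 genes lie left of 0 in both arrays, led by CENPF, AURKA and ANLN in B2 and CENPE, BUB1B and NDC80 in B1, and AURKB and CENPA lie to the right in B2 alone.

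By limma, fitted over all genes with Benjamini-Hochberg adjustment, 0 of 36 members and 0 of 19775 genes passed an adjusted p of 0.05 (background 0.0%). The smallest adjusted p was 0.97 among members and overall. At an unadjusted p under 0.05 there were 0 members and 565 genes (2.86%, and 4.0% of brighter genes). The fit had 1 residual degree of freedom per gene and 2.01 prior degrees of freedom. Each SE and interval thus joins the spread of the gene's own cisplatin pair with a spread drawn from all genes. The lone untreated array was taken to vary like the pair. In simulated data with 200 changed genes, 0% of those given log2 changes of 1, 2, 3 or 4 passed the threshold. The test thus could not call differences even of that size, and a count of 0 says nothing of how large the differences are. Intervals were wide: the 95% interval of the mean log2 difference ran from -0.58 to 0.59 for MAD2L1, whose 3 arrays were nearly equal, and from -1.24 to 0.01 for BUB1B. A gene that missed the threshold is thus not shown to be equal in the groups, and differences named below are those of these arrays.

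Motifs known from late cell cycle promoters were common upstream of these genes. Of the 36 members, 28 had a promoter window in the RefSeq table (GRCh38.p14), which spans 250 bases before to 50 after a start site. The windows were searched on both strands, with overlapping matches counted, for TTTGAA (reverse complement TTCAAA), the core of the cell cycle genes homology region (CHR) that DREAM and B-MYB complexes bind, and for CCAAT (reverse complement ATTGG), the box bound by NF-Y. TTTGAA was present in 21 of the 28 genes (75.0%), against 15.6% of 15384 measured genes with a window, and CCAAT in 23 of 28 (82.1%), against 41.7%. By window, 24 of 40 member windows held TTTGAA and 28 of 40 CCAAT, against 12.3% and 34.5% of 21490 windows. These are matches of letters in a window, not bound sites.

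The 250 bases before the start are shown for the genes at least 20% lower in both arrays (BUB1B, CENPE, CENPF and ANLN) and for those at least 25% higher in B2 alone (AURKB, CENPA and PRC1), so that promoters of genes that differed in opposite ways can be set side by side. AURKA, TTK and BIRC5, which met the same rules, are named only. Capitals mark TTTGAA or TTCAAA and CCAAT or ATTGG, and for AURKB 1 of its 2 windows is shown.
BUB1B (chr15:40160819-40161068, plus strand): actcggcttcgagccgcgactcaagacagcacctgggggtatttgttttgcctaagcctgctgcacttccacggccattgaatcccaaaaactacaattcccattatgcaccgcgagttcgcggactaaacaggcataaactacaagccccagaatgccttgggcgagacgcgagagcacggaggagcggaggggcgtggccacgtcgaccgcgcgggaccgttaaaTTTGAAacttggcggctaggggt
CENPE (chr4:103198344-103198593, minus strand): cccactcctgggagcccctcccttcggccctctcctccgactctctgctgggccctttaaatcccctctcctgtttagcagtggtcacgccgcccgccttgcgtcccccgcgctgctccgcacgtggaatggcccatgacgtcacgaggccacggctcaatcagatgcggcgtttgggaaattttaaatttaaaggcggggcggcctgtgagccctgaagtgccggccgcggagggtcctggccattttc
CENPF (chr1:214602945-214603194, plus strand): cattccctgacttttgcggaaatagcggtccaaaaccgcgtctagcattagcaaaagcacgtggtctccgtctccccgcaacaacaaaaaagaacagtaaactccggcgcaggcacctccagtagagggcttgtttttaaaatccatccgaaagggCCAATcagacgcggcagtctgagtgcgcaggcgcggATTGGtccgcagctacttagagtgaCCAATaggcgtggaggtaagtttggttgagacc
ANLN (chr7:36389612-36389861, plus strand): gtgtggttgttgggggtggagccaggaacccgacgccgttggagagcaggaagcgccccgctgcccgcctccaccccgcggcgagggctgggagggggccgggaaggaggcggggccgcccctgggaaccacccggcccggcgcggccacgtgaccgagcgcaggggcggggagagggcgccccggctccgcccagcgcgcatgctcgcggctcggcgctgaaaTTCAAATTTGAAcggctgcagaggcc
AURKB (chr17:8210226-8210475, minus strand): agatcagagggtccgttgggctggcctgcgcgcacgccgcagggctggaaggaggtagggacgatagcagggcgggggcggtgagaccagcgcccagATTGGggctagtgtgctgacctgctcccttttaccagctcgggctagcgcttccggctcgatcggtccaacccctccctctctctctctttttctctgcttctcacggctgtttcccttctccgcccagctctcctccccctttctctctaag
CENPA (chr2:26785806-26786055, plus strand): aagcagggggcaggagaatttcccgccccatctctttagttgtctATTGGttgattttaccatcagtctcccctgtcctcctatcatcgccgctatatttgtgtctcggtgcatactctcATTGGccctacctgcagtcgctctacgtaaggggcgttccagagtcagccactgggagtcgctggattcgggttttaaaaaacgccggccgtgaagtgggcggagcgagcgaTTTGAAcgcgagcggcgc
PRC1 (chr15:90994536-90994785, minus strand): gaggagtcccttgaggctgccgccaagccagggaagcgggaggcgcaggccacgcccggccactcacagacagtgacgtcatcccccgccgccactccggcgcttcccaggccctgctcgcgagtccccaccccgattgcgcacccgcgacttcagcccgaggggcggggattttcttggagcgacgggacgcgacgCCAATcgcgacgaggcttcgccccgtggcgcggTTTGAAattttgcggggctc

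BUB1B, CENPA and PRC1 each hold a TTTGAA shortly before the start, beginning at -23, -18 and -20, counted from -1 at the base before the start, and ANLN holds a back-to-back pair at -26 and -20. So the element stood in genes that were lower in both arrays and in genes that were higher in B2. CENPF has CCAAT matches before the start at -94, -58 and -33, and its TTTGAA lies after the start, at 41, outside the bases shown. CENPE has neither. Among members with TTTGAA 9 of 21 were lower in both arrays and the medians were -0.22 in B1 and 0.00 in B2, and among those without it 1 of 7 was, with medians of 0.01 and -0.07. The 5 members without CCAAT in the window (BUB1B, CENPE, NUF2, NDC80 and ANLN) were all lower in both arrays and their medians were -0.62 and -0.45, whereas 5 of the 23 with it were, and their medians were -0.09 and 0.02. The same 5 genes span 33.8 to 92.5 kb, and span moves with these differences too, as given further on. Neither feature was tested against the other. The members with no window are in none of these counts. Of them AURKA, BUB3, TTK, RACGAP1, UBE2C and FOXM1 were lower in both arrays. BIRC5 was higher in both, and TPX2 was lower in B1 and higher in B2. Over all genes 27.4% were lower in both arrays, and 34.2% of brighter genes were. These shares were not computed for genes with and without each motif.

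CDK1 and the CDC25 phosphatases, which remove its inhibitory phosphates, showed no common direction, and 0 of the 4 were lower or higher in both arrays. The background was 27.4% lower and 39.2% higher of all genes, and 34.2% and 29.8% of brighter genes. CDK1, the kinase that drives mitotic entry, had intensities of 3694 in untreated cells, 3459 in B1 and 3733 in B2. All 3 arrays were close, with log2 differences of -0.09 and 0.02. Its other 3 probe sets were higher in B2, by 0.34 to 0.45, so the mean over all 4 was 0.14 where the brightest gave -0.04. CDC25A, which also acts at the start of S phase, had 320 in untreated cells, 453 in B1 and 272 in B2. B1 was therefore the highest array and B2 the lowest (log2 differences of 0.50 and -0.23), and the untreated array lay between them. It was the only member at least 25% higher in B1. CDC25B, which starts CDK1 activation at centrosomes, differed by 0.01 and -0.37, and CDC25C, the phosphatase held in check by the DNA damage checkpoint, by -0.18 and 0.19.

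The Aurora kinases differed in opposite ways in B2. AURKA, the spindle pole kinase, had intensities of 1142 in untreated cells, 862 in B1 and 567 in B2 (probe set 208079_s_at). Both cisplatin arrays lay below the untreated array, B2 by more, with log2 differences of -0.41 and -1.01 (mean -0.71, SE 0.35, limma adjusted p = 0.97). All 3 of its probe sets were lower in both arrays. AURKB, the kinase of the chromosomal passenger complex, had 454, 380 and 720, which placed B1 below and B2 above the untreated array (-0.26 and 0.67). That difference was seen in its brighter probe set, whereas the other gave 0.09 and -0.07. TPX2, the spindle factor that activates Aurora A, had 1294, 942 and 1604 (-0.46 and 0.31), so it was below untreated in B1 and above it in B2.

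The partners of Aurora B were near or above their untreated level. INCENP, the scaffold of the passenger complex, had intensities of 104, 107 and 112 in untreated, B1 and B2. BIRC5 (survivin), its inner subunit, had 1079, 1141 and 1362, with log2 differences of 0.08 and 0.34, with 3 of its 4 probe sets above untreated on both. CDCA8 (borealin), the remaining subunit, which is not a member, differed by -0.14 and 0.10. Of the other mitotic kinases, PLK1, the Polo kinase of centrosomes and kinetochores, had 102, 73.2 and 104, lower in B1 alone (-0.48 and 0.03). PLK4, the regulator of centriole duplication, differed by 0.09 and -0.07, and NEK2, a centrosome kinase, by 0.05 and -0.07. Of this group of 8 genes 1 was lower and 2 were higher in both arrays. The background was 27.4% and 39.2% of all genes and 34.2% and 29.8% of brighter genes.

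All 5 spindle assembly checkpoint members were lower in B1 (MAD2L1 by under 0.01), and 3 were lower in both arrays. The background was 44.8% of all genes and 53.5% of brighter genes for B1, and 27.4% and 34.2% for both arrays. BUB1B (BubR1), which binds and restrains CDC20, had an intensity of 864 in untreated cells, 537 in B1 and 593 in B2. The cisplatin arrays lay close to each other and below the untreated array, with log2 differences of -0.69 and -0.54 (mean -0.61, SE 0.20, adjusted p = 0.97 by limma). TTK (MPS1), the kinase that starts checkpoint signalling, had 625, 446 and 419. It too was lower by nearly the same amount in each array, -0.49 and -0.58 (mean -0.53, SE 0.19). Each of these genes has 1 probe set. BUB1, the kinase that recruits checkpoint proteins, had 489, 417 and 596, below untreated in B1 and above it in B2 (-0.23 and 0.28). Of its 5 probe sets 3, all dimmer, were lower in both arrays, and the mean over all 5 was -0.24 and -0.04. BUB3, the shared partner of BUB1 and BUB1B, differed by -0.13 and -0.17, and 4 of its 6 probe sets were lower and 1 was higher in both arrays. MAD2L1 (MAD2), the inhibitor that is loaded onto CDC20, had 1023, 1022 and 1027, the same level on all 3 arrays within 0.01 on the log2 scale. A dimmer probe set of MAD2L1 was higher in both arrays, with 112, 138 and 139 (0.30 and 0.31), and the remaining one gave -0.09 and 0.01.

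Genes of the APC/C step differed from untreated by at most 0.31 on the log2 scale. CDC20, the coactivator, had intensities of 1289, 1282 and 1452 (log2 differences of -0.01 and 0.17). UBE2C, the E2 enzyme that starts ubiquitin chains, had 1830, 1775 and 1783 (-0.04 in each array). PTTG1, the securin destroyed at anaphase, had 2601, 2906 and 3232, higher by 0.16 and 0.31. Its probe set carries the suffix _x_at, which marks probes that may also match other transcripts, and PTTG1 has near-identical relatives. Of the 3 genes 1 was lower and 1 higher in both arrays, and neither met the size rule in both. The background for direction alone was 27.4% and 39.2% of all genes and 34.2% and 29.8% of brighter genes.

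The centromere and kinetochore members had the lowest median difference among the roles. Of 5 members 4 were lower in both arrays (background 27.4% of all genes, 34.2% of brighter genes), and these 4 span 33.8 to 92.5 kb. The group's median was -0.38 in B1 and -0.33 in B2. For 29 further centromere and kinetochore genes, given below, the medians were -0.02 and -0.30, with 10 lower and 8 higher in both arrays. CENPF, a large kinetochore protein of G2 and mitosis, had an intensity of 1491 in untreated cells, 1144 in B1 and 567 in B2 (probe set 207828_s_at). Both arrays were lower, B2 much more so, with log2 differences of -0.38 and -1.40 (mean -0.89, SE 0.54, limma adjusted p = 0.97). Its other probe sets gave -0.45 and -1.70, and -0.62 and -2.06, so all 3 probe sets placed B2 below B1 and B1 below untreated. These others were much dimmer, with intensities of 31.4, 23.0 and 9.63 for the first and 108, 70.0 and 25.9 for the second. The first lay below the median of each array, and whether it was detected is unknown. CENPE, the kinesin-like motor that moves chromosomes to the spindle equator, had 506, 307 and 371. Here B1 was the lowest array (-0.72 and -0.45, mean -0.58, SE 0.23).

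The NDC80 complex, which grips microtubule ends, was lower in both arrays in 3 of its 4 subunits (background 27.4% of all genes, 34.2% of brighter genes). NDC80 had intensities of 607, 394 and 502 (log2 differences of -0.62 and -0.27). NUF2, its partner, had 549, 452 and 438 (-0.28 and -0.33). Of the non-member subunits, SPC25 had 486, 363 and 258 (-0.42 and -0.91), and SPC24 had 238, 189 and 320, lower in B1 and higher in B2 (-0.33 and 0.43). CENPA, the histone H3 variant that marks centromeres, stood apart, with 384, 360 and 628. It was near the untreated level in B1 and above it in B2 (-0.09 and 0.71), and its probe set has the suffix _x_at. HJURP, the chaperone that deposits CENPA, differed the other way, at -0.51 and -0.72.

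**Figure D2:**
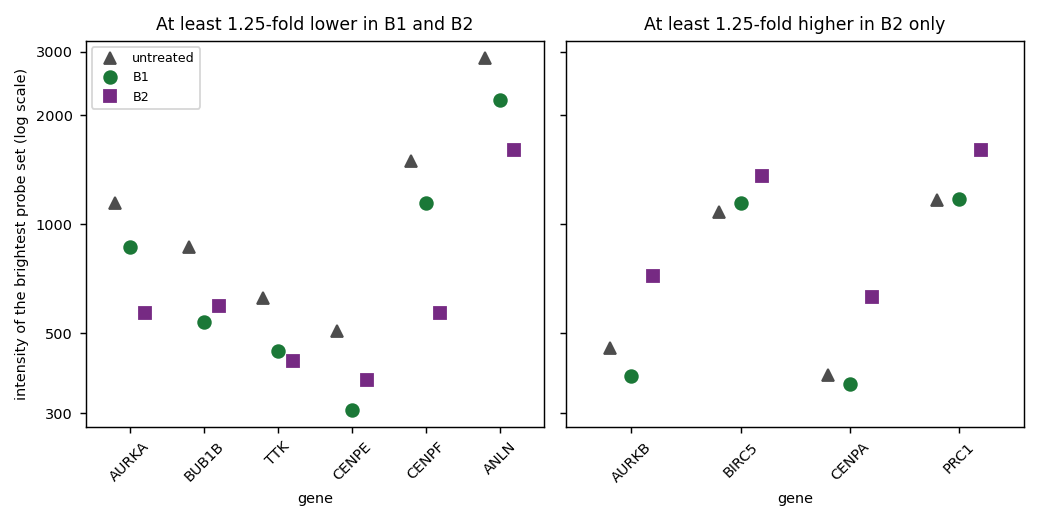
Intensity of the brightest probe set (y axis, log scale) in the untreated array (triangles), B1 (circles) and B2 (squares) for the 6 genes at least 20% lower in both cisplatin arrays (left) and the 4 that were at least 25% higher in B2 and not in B1 (right). For BUB1B, TTK and CENPE the cisplatin arrays lie near each other, whereas for AURKA, CENPF and ANLN B2 lies well below B1; on the right B1 lies near untreated in BIRC5 and PRC1. Each symbol is 1 array.

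Of the 4 spindle-associated members 3 were lower in both arrays (background 27.4% of all genes, 34.2% of brighter genes). HMMR, a microtubule-binding partner of TPX2, differed by -0.09 and -0.33, and NUSAP1, which bundles spindle microtubules, by -0.22 and -0.46. ASPM, a spindle pole protein, differed by -0.24 and -0.05, with its other 2 probe sets at -0.36 and -0.35, and -0.53 and -0.37. All probe sets of these 3 genes were lower in both arrays. DLGAP5 (HURP), which stabilises kinetochore fibres, had intensities of 401, 336 and 493 and so lay below untreated in B1 and above it in B2 (-0.25 and 0.30).

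In cytokinesis, ANLN differed most. ANLN (anillin), the scaffold of the contractile ring, had an intensity of 2875 in untreated cells, 2210 in B1 and 1606 in B2. The log2 differences were -0.38 and -0.84 (mean -0.61, SE 0.29), and its other probe set gave -0.48 and -0.82. RACGAP1, a subunit of the centralspindlin complex, had 1600, 1296 and 1399 (-0.30 and -0.19), lower in both. ECT2, the exchange factor it recruits, was lower in B1 alone (-0.26 and 0.04). PRC1, the bundler of the central spindle, had 1166, 1171 and 1603, equal to untreated in B1 and higher in B2 (0.01 and 0.46).

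By their brightest probe sets, TOP2A, MKI67 and FOXM1 were lower in B1, and in B2 they lay within 0.16 of untreated on the log2 scale. TOP2A, the topoisomerase that untangles sister chromatids, had intensities of 2034, 1579 and 1899 (log2 differences of -0.37 and -0.10). All 3 of its probe sets were lower in both arrays, the dimmest by -0.43 and -0.51. MKI67, the Ki-67 antigen, had 813, 708 and 815 (-0.20 and 0.00). Of its 4 probe sets 1 was lower (-0.12 and -0.04) and 1 higher (0.01 and 0.40) in both arrays. FOXM1, the transcription factor of the G2 and mitosis programme, had 545, 510 and 488 (-0.09 and -0.16). TOP2A met the size rule in B1, and none of these genes met it in both arrays.

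More of the members' probe sets were lower than higher. The members had 77 probe sets, of which 37 were lower in both arrays, 11 higher in both and 29 mixed. Of all 41091 probe sets with 1 symbol 28.9% were lower in both and 38.0% higher. Among probe sets with a mean log2 of at least 6, 28 of 64 from members were lower and 10 higher, against 35.5% and 28.3% of all such probe sets. Of the 19 genes with more than 1 probe set, 7 had every probe set lower in both arrays: AURKA, CENPF, HMMR, NUSAP1, ASPM, ANLN and TOP2A. Of all genes with more than 1 probe set 10.3% did, and of the brighter ones 13.6%. No member had every probe set higher in both, and BUB3 and MKI67 had probe sets lower in both beside others higher in both. With the mean of all probe sets in place of the brightest, all 16 genes lower in both arrays remained so, while AURKA left the 6 genes at least 20% lower because its B1 difference became -0.30.

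**Figure D3:**
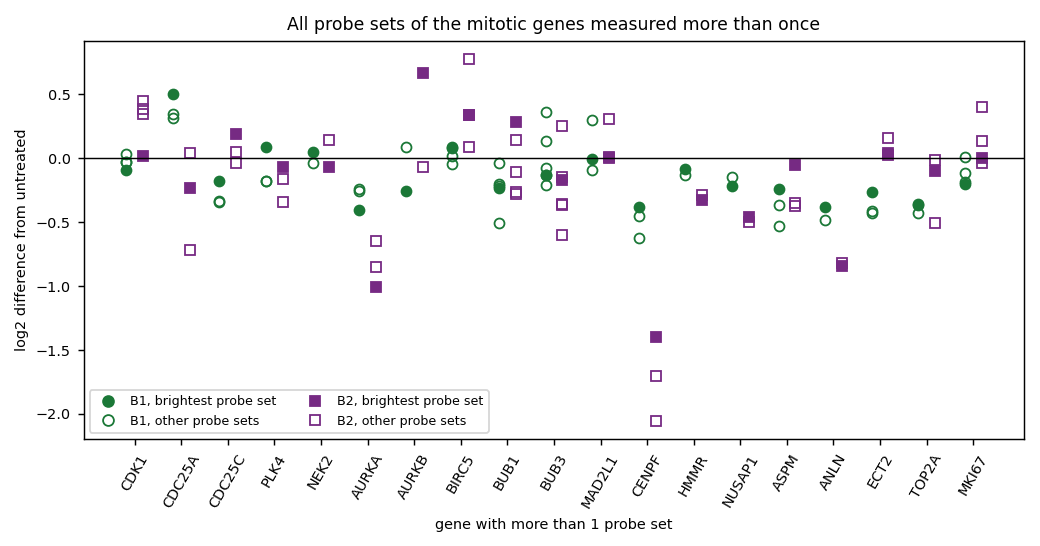
Log2 difference from untreated (y axis) of every probe set of the 19 genes measured by more than 1 (x axis), with circles for B1, squares for B2, filled symbols for the brightest probe set and open symbols for the others. The 3 probe sets of CENPF and of AURKA and the 2 of ANLN all lie below 0, whereas those of BUB3, MKI67 and CDC25A straddle it.

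Members with a longer span had lower values against untreated. Span is taken here as the length of the gene on the genome, introns included. Their median span was 29.6 kb (4.22 to 92.5 kb), near that of all genes (24.7 kb). Of the 12 shortest members (4.22 to 18.3 kb) 2 were lower and 2 higher in both arrays, and the medians were -0.03 (B1) and 0.02 (B2). Of the 12 in the middle (19.2 to 40.5 kb) 6 were lower and 2 higher, and the medians were -0.15 and -0.20. Of the 12 longest (43.5 to 92.5 kb) 8 were lower and 0 higher, with medians of -0.34 and -0.23. Across the 36 members, which share their arrays and are not independent, Spearman's rank correlation of span with the difference was -0.60 in B1 and -0.43 in B2, and across 10201 genes with a mean log2 of at least 6 it was -0.56 and -0.31.

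All brighter genes of the same 3 span ranges were ordered the same way. Of them 14.3%, 23.6% and 50.7% were lower in both arrays, and 46.8%, 33.3% and 13.3% were higher in both. Their medians in B1 were 0.08, 0.02 and -0.13, which is above those of the members in each range, and in B2 they were 0.11, 0.05 and -0.14. A span trend was also subtracted. It was fitted over all 19734 genes with a span, dim ones included, so it was not that of the brighter genes. CENPE, the longest member, moved from -0.58 to -0.49 in the mean of both arrays. Brighter genes near its span (bin median 95.1 kb) had medians of -0.26 in B1 and -0.30 in B2. After this step the member medians were -0.19 in B1 and -0.16 in B2. The count of members lower in both arrays went from 16 to 22. The count at least 20% lower in both went from 6 to 4, since CENPF and ANLN left it. The mean differences of CENPF and ANLN stayed near -0.85 and -0.56 (from -0.89 and -0.61). Shares over all genes were not computed after this step, so neither change in count is read as a result about the members. The length of a gene and its membership in the mitotic set cannot be fully told apart for the longest members.

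**Figure D4:**
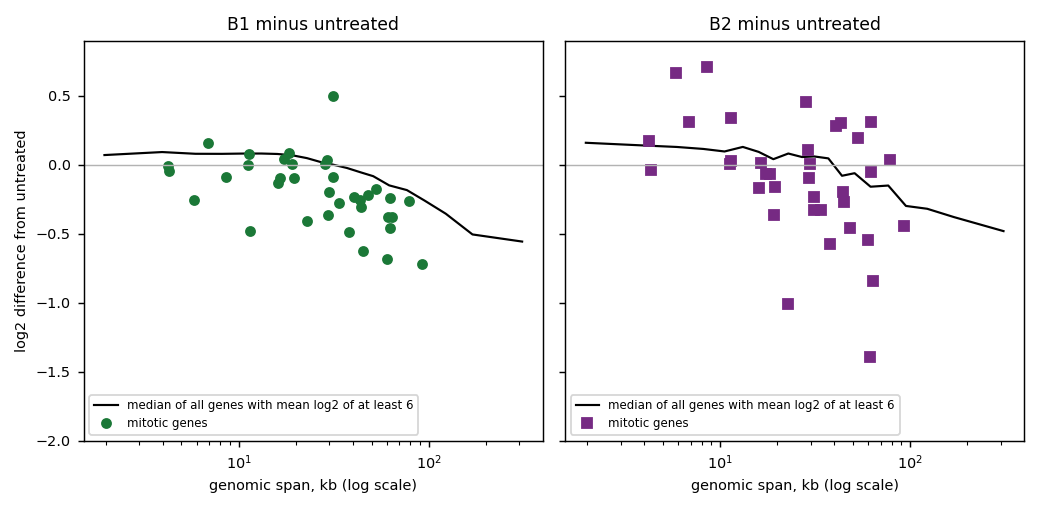
Log2 difference from untreated (y axis) against genomic span in kb (x axis, log scale) for the 36 mitotic genes (symbols) in B1 (left) and B2 (right), with a black line for the median of all genes with a mean log2 of at least 6 in 20 bins of span. The line falls with span in both panels, and 32 of the 36 symbols lie below it in B1 and 23 in B2.

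Other mitotic genes, from 6 lists drawn up from textbook roles, showed a like mixture. Of 110 listed genes 104 were measured, of which 41 were lower and 26 higher in both arrays (39.4% and 25.0%), and the medians were -0.13 (B1) and -0.01 (B2). These shares lie near the 34.2% and 29.8% of brighter genes. By the size rule 16 were lower (background 6.5% of all genes, 10.1% of brighter genes) and 2 higher (5.91% and 4.11%). By limma 0 passed the adjusted p (0.0%), and 3 had an unadjusted p under 0.05 (2.86% and 4.0%). Spindle, centrosome and cytokinesis genes were lower in 13 of 24 (54.2%) and higher in 4 (16.7%). Among them the centriole gene SASS6 differed by -0.54 and -0.66, and the centrosome scaffolds CEP192 and PCNT by -0.83 and -0.56 and by -0.35 and -0.94. HAUS3, an augmin subunit, met the size rule upward (0.48 and 0.63). Of 29 further centromere and kinetochore genes 10 were lower (34.5%) and 8 higher (27.6%), near the shares of brighter genes. Among them KNL1, the platform for BUB1 and BUB1B, was at -0.65 and -0.72 and NSL1, a subunit of the MIS12 complex, at -0.25 and -1.78. Over all their probe sets the means were smaller, -0.38 for KNL1 (from -0.69) and -0.71 for NSL1 (from -1.01). These 2 genes span 70.1 and 65.6 kb. Of the 8 higher genes, CENPM was at 0.06 and 0.50 and ZWINT at 0.12 and 0.43.

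Regulators of mitotic entry went both ways. Of 16 such genes 9 were lower (56.25%) and 3 higher (18.75%) in both arrays. The background was 27.4% and 39.2% of all genes and 34.2% and 29.8% of brighter genes. The NEK kinases of spindle formation, NEK6 (-0.62 and -0.95) and NEK7 (-0.70 and -0.93), and the MuvB subunits LIN52 (-0.52 and -0.60) and LIN54 (-0.63 and -0.87, on a dim probe set) were the lowest. Higher were PKMYT1, which inhibits CDK1 (0.31 and 0.85), MASTL, which protects CDK1 substrates (0.33 and 0.37), and MYBL2, which encodes B-MYB (0.28 and 0.39). WEE1, the other CDK1-inhibiting kinase, differed by -0.13 and -0.07. The APC/C list was lower in 2 of 16 (12.5%, against 27.4% of all genes and 34.2% of brighter genes). It was higher in 7 (43.75%, against 39.2% and 29.8%). The higher genes were led by the E2 enzyme UBE2S (0.17 and 0.86) and by the APC/C inhibitor FBXO5 (0.36 and 0.27). Condensin genes were lower in 3 of 8 (37.5%) and higher in 1 (12.5%). Of 11 checkpoint and cohesion genes 4 were lower (36.4%) and 3 higher (27.3%), near the shares of brighter genes. SGO2, the protector of centromeric cohesion, was at -0.40 and -0.47.

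The motors and cyclins of mitosis stood on either side of the members. Of 12 mitotic kinesins 8 were lower (66.7%) and 1 higher (8.33%) in both arrays, and the medians were -0.32 (B1) and -0.30 (B2). The background was 27.4% and 39.2% of all genes and 34.2% and 29.8% of brighter genes. KIF15 was lower by more than the other motors on average, at -0.74 and -1.15, and KIF22 was the higher gene (0.33 and 0.95). KIF20A, the motor of late cytokinesis, had intensities of 562, 493 and 1114, so it was the same way round as AURKB and CENPA, lower in B1 and higher in B2. Of 4 mitotic cyclins 1 (CCNF) was lower in both (25.0%) and 0 higher. CCNB1, the partner of CDK1, differed by -0.07 and 0.12, and CCNB2 by -0.06 and 0.20.

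Of genes of the preceding step, entry to S phase and DNA replication, more were higher than lower. Of 33 measured, 7 were lower (21.2%) and 16 higher (48.5%) in both arrays, against 27.4% and 39.2% of all genes and 34.2% and 29.8% of brighter genes, and the medians were 0.11 (B1) and 0.04 (B2). By the size rule 0 were lower (background 6.5% and 10.1%) and 4 higher (5.91% and 4.11%). The 4 higher genes were CCNE1, the cyclin of S phase entry (0.84 and 1.62), the origin licensing factor CDC6 (0.68 and 0.76), the transcription factor E2F1 (0.53 and 0.62) and the helicase subunit gene GINS4 (0.34 and 0.75). CDC25A, the member that acts with this group, was likewise higher in B1 but not in B2. The difference between the mitotic and the replication genes was not tested, since genes are not replicates of a culture.

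**Figure D5:**
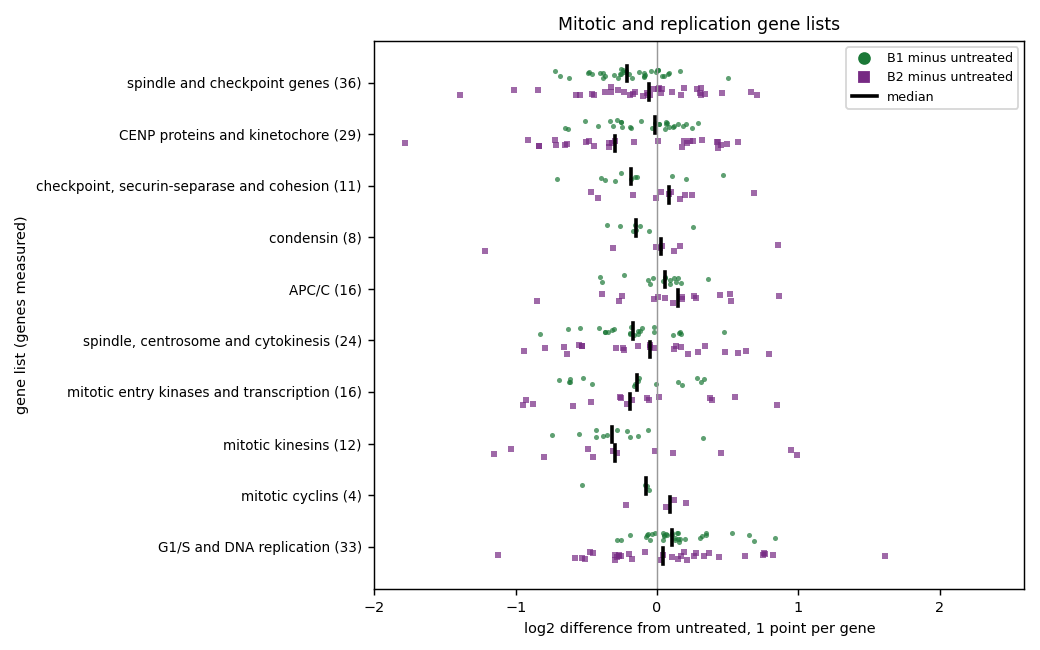
Log2 difference from untreated (x axis) of each gene in the set of 36 and in 9 other lists (y axis, with the number of genes measured), with circles for B1, squares for B2 and black bars for the medians. The mitotic kinesins have the lowest median in B1 (-0.32), the members follow (-0.21), and the replication list (0.11 and 0.04) and the APC/C list (0.06 and 0.15) lie above 0 in both arrays.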

How the data were processed

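Expression of 54675 probe sets was measured on 3 arrays, 1 untreated and 2 cisplatin. Per the submitters' processing notes the authors used RMA, and the deposited values are intensities on a linear scale (3.03 to 19645, array medians 34.8, 35.9 and 35.6). RMA's version is not given in the sources used here, nor are detection calls, so whether a dim probe set was detected is unknown. Intensities were put on the log2 scale with no pseudocount. Control probe sets (62) were dropped. The platform annotation pairs 41091 of the remainder with 1 gene symbol and 1801 with several, and does not list 11721. Symbols were updated to RefSeq (GRCh38.p14) by gene number, giving 19775 genes. Log2 values were fitted with limma 3.58.1 (R 4.3.3, lmFit and eBayes) over all genes, cisplatin against untreated. On simulated data the mean estimates were 1.05 to 4.03 for log2 changes of 1 to 4, but 0% of the changed genes passed the threshold. Counts by fold use both cisplatin arrays. Alternatives were the mean of all probe sets, genes with a mean log2 of at least 6, quantile normalization and median centring. Further ones were removal of a lowess trend on genomic span (fraction 0.3, fitted over all genes with a span), other variance priors and each cisplatin array alone.

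The members and lists were chosen with earlier results of these data known, and the promoter motifs after the values had been seen. By the rule for named genes every member could be named, with intensities on all arrays for members that met the size rule in both arrays, for the 4 with the largest gap between B1 and B2 and for 7 lead genes; DLGAP5, BUB1, NDC80 and the other genes given on all arrays beyond these, and list genes outside the 4 lowest and 4 highest of a list (CDCA8, SPC24, WEE1, KIF20A, CCNB1 and CCNB2), were chosen after their values were seen. The squamous markers TP63, KRT6A and KRT17 were not analysed here. With 3 arrays, precision is limited by their number.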

Additional observations from a re-analysis of the deposited data

How the results depend on the processing

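The test had too little power for its calls to show stability: no member or gene passed limma's adjusted p of 0.05 under any of the 7 alternatives with a test, where 0 to 2 members and 264 to 639 genes had an unadjusted p under 0.05, and for the members' own fits the adjusted p was 0.96 or more. The count of members lower in both arrays (16) was 16 to 22 under the 5 alternatives that keep both arrays, and all 16 genes were among them except FOXM1 with quantile normalization. The count higher in both arrays (4) was 6 with the mean of all probe sets, 7 with quantile normalization, 2 with median centring and 1 with the span trend removed. Shares over all genes were not computed with another normalization or with the span trend removed. With either cisplatin array left out, the counts became 20 to 28 lower, 8 to 16 higher, 10 in each array at least 20% lower, 1 to 4 at least 25% higher and 0 to 2 at least 2-fold lower (without B2 none, without B1 AURKA and CENPF). The limma test could not be run on 1 cisplatin array, which leaves no residual degrees of freedom. For 16 members, those with opposite signs in B1 and B2, 1 array alone turns the sign of the mean difference (AURKB 0.21 to -0.26 and CENPA 0.31 to -0.09 without B2, CDC25A 0.13 to -0.23 and PLK1 -0.23 to 0.03 without B1). With both arrays kept, the mean difference changed sign in 9 genes. With the mean of all probe sets it became 0.14 for CDK1, -0.11 for CDC25C, -0.14 for PLK4, 0.022 for NEK2, -0.14 for BUB1 and 0.0017 for MKI67. With median centring it became -0.031 for CDC25C, -0.028 for PLK4, -0.012 for BUB1, -0.037 for MAD2L1 and -0.015 for DLGAP5. With the span trend removed it became -0.078 for PLK4, -0.10 for MAD2L1 and -0.029 for CDC20, and with quantile normalization 0.060 for NEK2. The cause of these changes was not tested. No paired analysis was possible because the untreated group has 1 array, whose label carries no replicate number.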
